A study of Mus musculus with 6 samples.

Results

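The control colon of the study was described on its own, as the baseline state of a whole mouse colon. The series holds 6 samples, of which the 3 labelled control were used and the 3 of mice given DSS (dextran sulfate sodium, an agent that injures the colon lining) were not. The members were chosen by the group label alone, and every gene row of the control samples was described by its level, its rank and its spread. All 3 control samples were colon tissue of C57BL/6 mice with a label of 7 weeks for age, and their mouse group label was control. No agent, transgene or allele is named for them. Whole tissue RNA was sequenced after selection for poly(A) tails, with a library step that does not record strand. The labels do not say whether the samples came from separate mice, so the spread between them may be partly technical. With a single group there was no contrast to test, and all values below are a description of 3 samples.

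The colon wall is lined by a single epithelial layer folded into crypts. Stem cells at the crypt base give rise to absorptive colonocytes, which take up salt, water and short-chain fatty acids, and to secretory goblet, enteroendocrine and tuft cells. Goblet cells build the mucus that separates the microbiota from the tissue. Beneath the epithelium lie connective tissue with immune cells, and a muscle wall with its own nervous system.

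Levels are given in FPKM, fragments scaled by library size and by the kilobases of the transcript, which divides by transcript length so that genes can be compared. The 24421 gene rows summed to 609544, 638096 and 635210 FPKM in control samples 1, 2 and 3. Read depth could not be recovered from these values and is unknown. Control 1 stood apart from the other two: over 12030 genes with a mean of at least 1 FPKM, Pearson correlations of log2(FPKM + 1) were 0.968 between samples 1 and 2, 0.97 between 1 and 3, and 0.984 between 2 and 3. These correlations are across genes, which share a library and are not replicates. Genes that differed by more than 1 log2 unit numbered 438, 406 and 163 in the same pairs, so values are given per sample, and the median CV and the count over 2-fold also without control 1. In bulk tissue, fewer cells of a type and less RNA per cell cannot be told apart. Shares are of the sum over these 24421 rows. Mitochondrially encoded genes and immunoglobulin segments were not analysed here.

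The transcriptome of the control colon was dominated by few genes. In the 3 samples 11849, 11977 and 11993 genes reached 1 FPKM, 5345, 5611 and 5555 reached 10 FPKM, and 98, 112 and 113 reached 1000 FPKM. The mean profile had 12030 genes at 1 FPKM or more, which is 49.3% of all rows. The 10 highest genes held 11.3%, 11.2% and 11.5% of the summed FPKM, the 100 highest held 38.8%, 38.3% and 38.3%, and 195, 199 and 199 genes were enough to hold 50%. At the other end, 6360 rows were listed at 0 in all 3 samples. The samples shared 6 of their 10 highest genes, 25 of their 30 highest and 83 of their 100 highest.

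**Figure D1:**
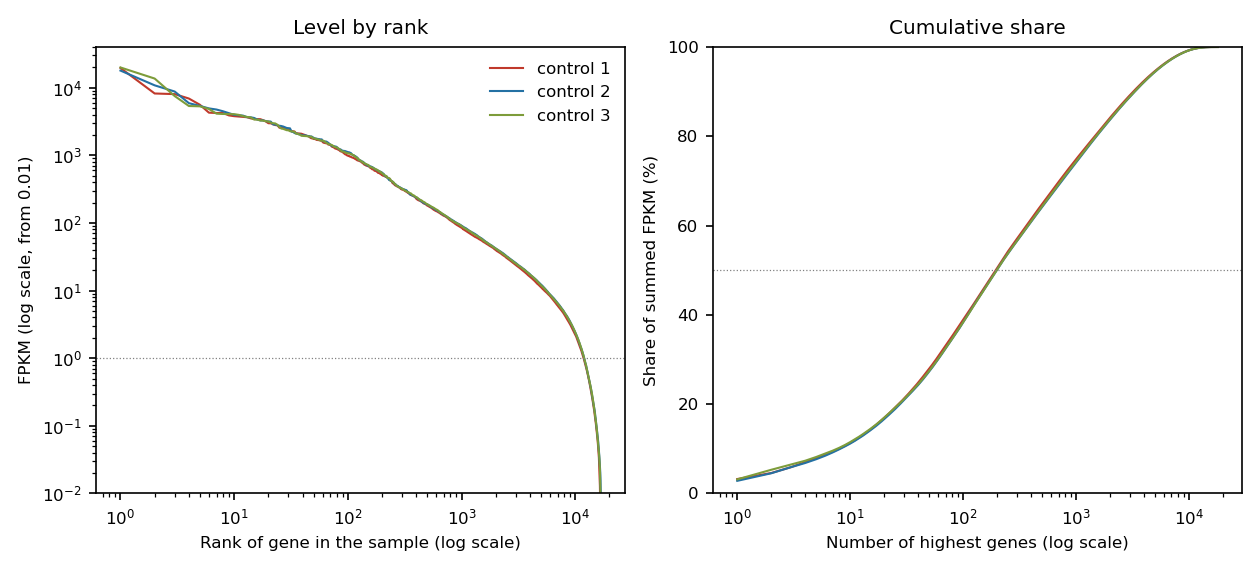
Left, FPKM of every gene against its rank within each control sample, both on log scales, with a dotted line at 1 FPKM. Right, the share of summed FPKM held by the highest genes, with a dotted line at 50%. The 3 curves nearly coincide and cross 50% at 195 to 199 genes.

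Secreted and surface defence proteins of the epithelium held the highest ranks. Lypd8, a GPI-anchored protein known to keep flagellated bacteria away from the colon epithelium, was the highest gene, at 19589, 17924 and 19933 FPKM in control samples 1, 2 and 3 (mean 19149 ± 1074, SD, n = 3). Its lowest value lay above every value of the second gene, Mptx1, at 8212, 10838 and 13657 FPKM (mean 10903 ± 2723, SD, n = 3). Mptx1 encodes a secreted mucosal pentraxin. It was lowest in control 1 and highest in control 3, and this is the only neighbouring pair of the 30 compared in the order whose sample ranges did not overlap. Below Mptx1 the ranges of all neighbours compared overlapped, although Mptx1 was above Zg16 and Sprr2a1 above Rplp1 in each of the 3 samples. Zg16, a goblet cell lectin that binds Gram-positive bacteria, stood at 6914, 8778 and 7525 FPKM. Sprr2a1, from a cluster of small proline-rich proteins best known from cornified epithelia, stood at 8040.5, 5904 and 5361 FPKM and was highest in control 1. Saa1, a serum amyloid A protein that epithelium and liver secrete, stood at 4275, 3382 and 5306 FPKM. Sprr2a1 and Sprr2a3 have near-identical sequences, and their sum was 11026, 7800 and 7372 FPKM. In the GENCODE annotation of GRCm38 these are protein-coding genes: Lypd8 at chr11:58379043-58390728 (+ strand), Mptx1 at chr1:174330518-174332873 (+ strand), Zg16 at chr7:127050156-127087328 (- strand), Sprr2a1 at chr3:92215799-92221911 (+ strand) and Saa1 at chr7:46740497-46742980 (- strand).

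The list of secreted antimicrobial and mucosal defence genes held 9.59%, 9.08% and 10.02% of the summed FPKM in the 3 samples, with 27 of its 32 genes at 1 FPKM or more. The other of its 6 highest members was Lgals4, a lectin of the brush border, at 3743 ± 131 FPKM (SD, n = 3). Pglyrp3 and Reg3a were listed at 0, and Camp, Pglyrp2 and Defb37 had means of 0.255, 0.171 and 0.0944 FPKM. Camp is the mouse cathelicidin and Defb37 a beta-defensin, both antimicrobial peptides. Of 55 defensin rows, 49 were listed at 0 and Defb45 alone reached 1 FPKM, at 3.39, 2.8 and 3.35. Reg4 and Sycn are markers of deep crypt secretory cells, the cells that sit among colon stem cells, and they stood at 640 ± 52 and 3309 ± 398 FPKM (SD, n = 3).

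The promoter sequence just around the start site is shown for 4 of the highest epithelial genes, since these genes share high levels but come from different families. Each line gives 60 bases before and 20 after the RefSeq start (GRCm38.p6), 5′ to 3′ on the strand of the gene, and capitals mark TATAA, the core letters of the TATA box.
Lypd8: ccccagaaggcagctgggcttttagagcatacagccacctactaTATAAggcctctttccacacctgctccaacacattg
Mptx1: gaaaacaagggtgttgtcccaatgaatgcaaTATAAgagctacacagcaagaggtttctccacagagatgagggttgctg
Sprr2a1: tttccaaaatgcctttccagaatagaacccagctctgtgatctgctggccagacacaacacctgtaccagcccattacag
Krt8: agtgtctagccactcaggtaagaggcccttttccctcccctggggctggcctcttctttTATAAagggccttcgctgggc
The windows are chr11:58378972-58379051 (+ strand) for Lypd8, chr1:174330458-174330537 (+) for Mptx1, chr3:92215775-92215854 (+) for Sprr2a1 and chr15:102004323-102004402 (− strand) for Krt8. For Lypd8, Sprr2a1 and Krt8 the RefSeq start differs from the 5′ end of the GENCODE gene, so distances depend on the start taken. Where a gene has several promoters, as Lypd8 does, the first listed was used. TATAA began 16 bases before the RefSeq start in Lypd8, 29 before in Mptx1 and 1 before in Krt8, and these letters are not in the Sprr2a1 window. On the strand of the gene they are also absent from the promoters of Saa1, Tpt1, Klk1, Lgals4, Rps27rt, Crip1, Agr2 and Myl6. TATAA lying wholly within 40 to 16 bases before the start, on that strand, was in 5.63% of promoters of the 100 highest genes. Lypd8, where it begins 16 bases before, is not counted among these. The share there was 4.44% over all rows and 2.67% for genes at 10 to 100 FPKM. Over 300-base promoters, read on both strands, TATAA was found in 23.9% of the 71 promoters available for the 100 highest genes. The share was 22.4% over the 17224 promoters of all rows, 13.8% for genes at 10 to 100 FPKM and 41.8% for rows listed at 0, so the share among the highest genes was close to that over all rows. CCAAT was found in 35.2% of the 71 promoters against 38.8% of all, and GGGCGG in 47.9% against 46.7%. For genes at 10 to 100 FPKM the shares were 39.9% for CCAAT and 67.5% for GGGCGG. For rows listed at 0 they were 40.9% and 13.2%. GGGCGG was thus less frequent among the highest genes than among genes at 10 to 100 FPKM. The median coding length was 456 bases among the 100 highest genes and 1221 over all rows, and none of 97 placed genes of the 100 highest were direct neighbours on a chromosome (0 adjacent pairs).

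**Figure D2:**
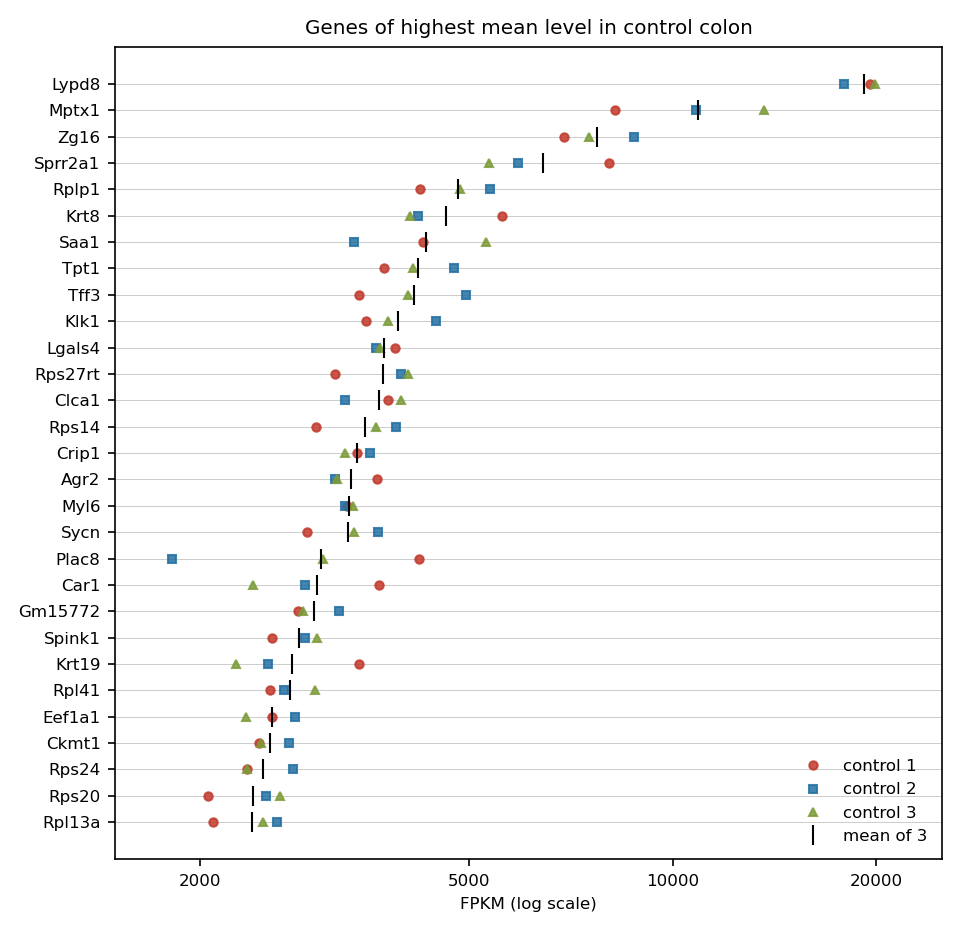
FPKM on a log scale for 29 of the 30 genes of highest mean level, from highest to lowest. Symbols stand for the 3 control samples and the tick for their mean. Lypd8 lies apart from the rest, and Plac8 has the widest spread of those drawn, from 1818 in control 2 to 4219 in control 1.

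Of the remaining genes among the 30 highest, most belonged to protein synthesis, mucus secretion or the epithelial skeleton. Ribosomal and translation genes among them were Rplp1, Rps27rt, Rps14, Gm15772, Rpl41, Eef1a1, Rps24, Rps20, Rpl13a and Tpt1, a protein of growing cells. Their means ran from 2394 FPKM for Rpl13a to 4818 for Rplp1. Of the 30 genes, 16 have a near-identical copy elsewhere in the genome, so that reads could be split between copies and their levels are uncertain. Gm15772 is 99.5% identical to Rpl26, whose own row had a mean of 3.5 FPKM, and Rps27rt is identical to Rps27 over 341 bases, whose row had a mean of 28.1 FPKM. Crip1, a small LIM-domain protein, stood at 3422 ± 145 FPKM, and Myl6, a light chain of non-muscle and smooth muscle myosin, at 3319 ± 47.7 FPKM (SD, n = 3). Spink1, a trypsin inhibitor, stood at 2801 ± 219 FPKM and Ckmt1, the mitochondrial creatine kinase, at 2539 ± 148 FPKM (SD, n = 3). Plac8 stood at 4219, 1818 and 3043 FPKM and was lowest in control 2.

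Goblet cell genes were all present. All 19 rows of the list reached 1 FPKM, 11 of them 100 FPKM, and together they held 4.08%, 4.33% and 4.25% of the summed FPKM, a range narrower than that of the colonocyte list. After Zg16 came Tff3, a trefoil peptide of mucosal repair, at 3437, 4942 and 4068 FPKM. Klk1, a tissue kallikrein with near-identical copies in its cluster, stood at 3521, 4476 and 3794 FPKM. Both were lowest in control 1 and highest in control 2. Clca1, a secreted mucus-processing protein, stood at 3680.4 ± 353 FPKM and Agr2, a disulfide isomerase required for mucin folding, at 3342 ± 276 FPKM (SD, n = 3). Spink4, a goblet cell peptide, stood at 1926 ± 271 FPKM (SD, n = 3). The structural mucin Muc2 ranked 502, at 215, 135 and 209.6 FPKM, below the 6 goblet genes named before it. Muc13, a membrane mucin of colonocytes, stood higher, at 1646, 922 and 1305 FPKM, and both mucins were lowest in control 2. Their sample ranges do not overlap, and in each sample Muc13 was between 6.23 and 7.67 times as high as Muc2. Of the 10 mucin rows, 4 reached 1 FPKM. The stomach mucins Muc6 and Muc5ac had means of 0.0133 and 0.00167 FPKM, Muc20 had 0.314, and Muc19, Muc15 and Muc5b were listed at 0.

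Absorptive colonocyte genes were likewise high, and all 24 of the list reached 1 FPKM, 15 of them 100 FPKM. Car1 and Car4 are carbonic anhydrases, which supply protons and bicarbonate for salt exchange. Car1 stood at 3688, 2860 and 2402 FPKM and Car4 at 1735, 1604 and 1648 FPKM, with Car1 highest in control 1 and Car4 nearly level. Aqp8, a water channel of surface colonocytes, stood at 1922, 1252 and 1331 FPKM, and Slc26a3, the chloride and bicarbonate exchanger, at 927, 500.5 and 718 FPKM. Krt20, a keratin of differentiated surface cells, stood at 1308, 555 and 779 FPKM. Each of these 3 was highest in control 1 and lowest in control 2. Guca2a, the precursor of the peptide guanylin that drives fluid secretion, stood at 2265, 2218 and 2216 FPKM and had a CV (SD over mean) of 1.24%. Sprr2a3, which has a near-identical copy, stood at 2298 ± 599 FPKM (SD, n = 3). The list summed to 2.91%, 2.02% and 2.09% of the FPKM, highest in control 1.

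Ion and water transport was broad: 38 of 40 rows reached 1 FPKM and 14 reached 100 FPKM. Besides the genes above, Car2 stood at 649.9, 958 and 1083 FPKM, in the reverse order of Car1 over the 3 samples. Solute carriers as a family had 205 of 371 rows at 1 FPKM or more (55.3%, against 49.3% of all rows) and 12 at 100 or more. The 6 highest were Slc25a5 at 1333 ± 125 FPKM, the mitochondrial ADP/ATP exchanger, Slc26a3, Slc25a3 at 494, the mitochondrial phosphate carrier, Slc44a4 at 282, Slc6a14 at 214, an amino acid transporter, and Slc9a3r1 at 160.4, a scaffold protein that carries a carrier name. Of 98 potassium channel rows 17 reached 1 FPKM, led by Kcne3, a subunit that keeps the basolateral channel open for chloride secretion, at 207 ± 53 FPKM (SD, n = 3). Among 11 aquaporin rows 4 reached 1 FPKM: Aqp8, Aqp4 at 75.7, 9.25 and 107, Aqp1 at 17.7, 20.1 and 20.3 and Aqp11 at 3.42, 8.6 and 7.24 FPKM. Aqp4, a basolateral water channel, stood in control 2 at 0.122 times its level in control 1, whereas Aqp1, of blood vessels, was nearly level. Aqp7 was listed at 0 and the potassium channel Kcnj13 had a mean of 0.0282 FPKM.

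The epithelial skeleton and its junctions were led by simple-epithelium keratins. Krt8 stood at 5592, 4208 and 4088 FPKM, Krt19 at 3437, 2522 and 2261 FPKM and Krt18 at 498, 239 and 248 FPKM. All 3 were highest in control 1, and Krt8 was 15.1 ± 3.39 times (SD, n = 3) the level of Krt18, with which it pairs in filaments. Krt8 has near-identical copies, so its level is uncertain. Of 48 keratin rows 10 reached 1 FPKM and 23 were listed at 0. Epcam, the general epithelial adhesion protein, stood at 1106 ± 137 FPKM, Tspan8, a tetraspanin, at 845 ± 135 and Cdh1, E-cadherin, at 255 ± 30.2 FPKM (SD, n = 3). Claudins, the barrier-forming proteins of tight junctions, had 11 of 23 rows at 1 FPKM or more (47.8%, against 49.3% of all rows). Cldn7 stood at 509 ± 23.1 and Cldn3 at 377 ± 51.4 FPKM (SD, n = 3), followed by Cldn8, Cldn23, Cldn4 and Cldn15 at 73.1 to 30.6 FPKM. In the brush border list 24 of 25 rows reached 1 FPKM. Ezr, which links the membrane to actin, stood at 458, 189 and 224 FPKM and Vil1, villin, the actin bundler of microvilli, at 254, 162 and 184 FPKM. Both were highest in control 1. Treh, the trehalase of the small intestine, had a mean of 0.0287 FPKM.

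Listed genes of the rarer epithelial lineages spanned several orders of magnitude, and some defining genes lay under 1 FPKM. Enteroendocrine cells were led by Insl5, a hormone of colonic L cells, at 304, 315 and 307 FPKM, and by Pyy, peptide YY of the same cells, at 169, 192 and 178 FPKM. Insl5 was 1.72 ± 0.0798 times as high as Pyy (SD, n = 3), a ratio that varied little. Chga, Gcg, Resp18 and Chgb followed at 22.6 to 32.3 FPKM. Gip, the hormone of the upper small intestine, was listed at 0, Ghrl and Nts had means of 0.852 and 0.597 FPKM, and Fev, Pax6 and Pax4 lay between 0.049 and 0.467 FPKM. Of 12 tuft cell rows 6 reached 1 FPKM, a share close to the 49.3% of all rows. Ptgs1 led at 11 ± 0.699 FPKM, and the defining factor Pou2f3 and the channel Trpm5 had means of 0.291 and 0.69 FPKM. Stem cell genes were led by Prom1 at 53.2 ± 9.91 FPKM (SD, n = 3), and Lgr5, the receptor that marks crypt base stem cells, stood at 0.54, 1.27 and 1.16 FPKM. Znrf3 had a mean of 0.823 FPKM, and Olfm4 and Msi1 were listed at 0. All 22 proliferation genes reached 1 FPKM and none reached 100 FPKM (0 genes), with Pcna, which has a near-identical copy, at 82.1 ± 9.12 and Ube2c at 36.8 ± 11.5 FPKM (SD, n = 3).

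Hox genes of the posterior groups led the genes of intestinal position. Hoxb13, a Hox gene known for its distal colon and rectal expression, stood at 129, 229 and 278 FPKM, was the highest of 39 Hox rows and exceeded Hoxd13 8.36 ± 2.36 times (SD, n = 3). It lies at chr11:96194316-96197447 (+ strand) on GRCm38. Hoxd13, Hoxa10, Hoxa13, Hoxa9 and Hoxb9 followed at 8.28 to 26.2 FPKM. Of the 17 Hox rows at 1 FPKM or more none lay in the Hoxc cluster, whose 2 highest rows, Hoxc4 and Hoxc5, had means of 0.171 and 0.0736 FPKM. Cdx2, a homeobox factor of the intestine, stood at 12.6, 19.4 and 37 FPKM. Both Hoxb13 and Cdx2 were lowest in control 1 and highest in control 3. Elf3, Cdx1, Klf4 and Hnf4a led the transcription factor list at 239 ± 68.8, 204 ± 63.4, 178 ± 31.4 and 169 ± 30.7 FPKM (SD, n = 3). Gata4, which marks the upper small intestine, had a mean of 0.12 FPKM.

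The colon label was checked against genes of neighbouring organs. The colon genes Car1, Car4, Aqp8, Muc2 and Hoxb13 were all present at the values above. Among small intestinal genes Sis, Lct and Apoa4, a disaccharidase pair and an apolipoprotein, had means of 0.0212, 0.0169 and 0.0128 FPKM. Fabp6, an ileal bile acid binding protein, stood at 5.02, 3.87 and 7.01 FPKM and Slc10a2, the ileal bile acid transporter, at 2.05, 1.49 and 1.61 FPKM. Of the 24 rows for Paneth cells and small intestine 9 reached 1 FPKM, led by Fabp2 and Rbp2 at 124 ± 11.7 and 60.4 ± 3.68 FPKM (SD, n = 3). The Paneth alpha-defensins Defa17, Defa21, Defa22 and Defa24, and Mmp7, Apoa1 and Fabp1, were listed at 0. None of 11 stomach rows reached 1 FPKM (0 rows). Of 14 pancreas rows Cela1, an elastase, stood at 474, 737 and 669.9 FPKM and Clps, colipase, at 30.5, 31.2 and 53.2 FPKM, while 10 rows, among them Prss1, Cpa1, Pnlip and Ins2, were listed at 0. Among 10 liver rows Ttr stood at 33.7 ± 8.54 and Tat at 26.5 ± 9.51 FPKM (SD, n = 3), and Alb, albumin, at 1.01, 1.04 and 1.08 FPKM. Skeletal muscle was led by Ckm at 15.6 ± 2.58 FPKM (SD, n = 3), with Myh1, Myh4 and Mb at 0. Xist was listed at 0 in all 3 samples and the Y-linked Eif2s3y stood at 30.8, 31.2 and 30.3 and Ddx3y at 10.4, 9.45 and 7.91 FPKM, the same pattern in all 3 samples.

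**Figure D3:**
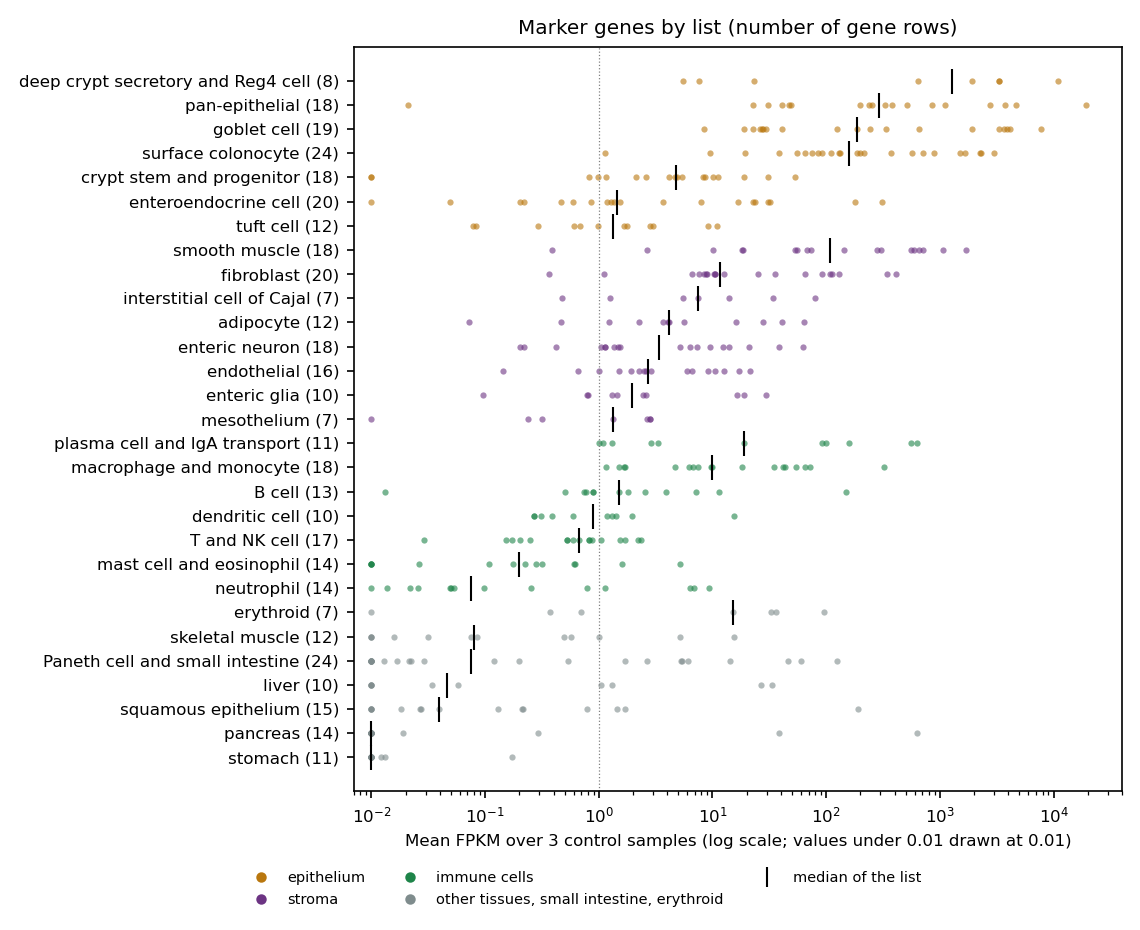
Mean FPKM over the 3 control samples (log scale) of every gene of each cell type or tissue list, with values under 0.01 drawn at 0.01. Each point is a gene, the tick is the median of the list, the dotted line marks 1 FPKM and the number of gene rows stands in brackets. The medians of the goblet, colonocyte and smooth muscle lists are among those above 100 FPKM, and the stomach and pancreas medians lie at 0.

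Protein synthesis and energy genes formed the other large part of the profile. The 86 rows named as cytosolic ribosomal proteins held 13.95%, 15.3% and 14.8% of the summed FPKM, and 82 of them reached 1 FPKM. Rpl10l, Rpl39l and Rpl3l, the tissue-restricted paralogs, were listed at 0. Of the 86 rows, 75 have a near-identical copy, which makes single members uncertain. Nuclear-encoded respiratory chain subunits held 5.43%, 5.96% and 5.96%, with 93 of 97 rows at 1 FPKM or more. Cox8a, Cox6c, Uqcrh, Cox7c, Atp5j2 and Cox6a1 led at 1294 to 1657 FPKM. Both sets were lowest in control 1. All 34 tRNA synthetase rows and 37 of 39 proteasome rows reached 1 FPKM. The proteasome rows had a median level of 69.2 FPKM and a median CV of 6.45%. The median CV was 12.4% over all genes at 30 to 100 FPKM and 15.2% over all genes at 1 FPKM or more.

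Fuel use genes were present at moderate levels. Butyrate, made by bacteria, is a main fuel of colonocytes and is burned by mitochondrial fatty acid oxidation. In that list 23 of 24 rows reached 1 FPKM. Etfb, an electron carrier, stood at 147, 171 and 196 FPKM, Hadh, a beta-oxidation dehydrogenase, at 88.3, 164 and 169 FPKM, and Acsm3, a butyryl-CoA synthetase, at 122, 135 and 115 FPKM. Hadh was lowest in control 1, and 18 of the 23 were lowest there, against 6257 of all 12030 genes at 1 FPKM or more. Ppara, a regulator of fat oxidation, had a mean of 0.841 FPKM. In glycolysis, Ldha, lactate dehydrogenase A, stood at 1104 ± 122 FPKM and Aldoa at 694 ± 45.9 FPKM (SD, n = 3), both with near-identical copies. Gapdh, which every cell uses, was listed at 2, 0.117 and 0.145 FPKM and has many near-identical pseudogene copies, so its own level is uncertain. Actb, another common reference gene, stood at 1267, 805 and 847 FPKM and was highest in control 1. The list of xenobiotic and steroid metabolism was led by Adh1, an alcohol dehydrogenase, at 657, 1256 and 1097 FPKM, and by Cyp2c55, the highest of 98 cytochrome P450 rows, at 485, 653 and 576 FPKM. Mgst3, a microsomal glutathione S-transferase outside that list, stood higher, at 1304, 1602 and 1461 FPKM. Of the 98 cytochrome P450 rows 33 reached 1 FPKM and 43 were listed at 0. Cyp1a1, the classical target of the aryl hydrocarbon receptor, had a mean of 0.37 FPKM, and Gsta2 and Ugt2b5 had 0.291 and 0.115 FPKM.

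Stromal genes held a smaller share than epithelial genes. The 108 listed stromal rows summed to 1.46%, 1.4% and 1.16% of FPKM, and 116 epithelial rows to 15.1%, 13.9% and 14.6%. Lists hold different numbers of genes, so these shares are not shares of cells. Smooth muscle led the stroma, with 17 of 18 rows at 1 FPKM or more. Tagln, transgelin, stood at 1686, 1966 and 1428 FPKM, Acta2, smooth muscle actin, at 691, 744 and 549.7 FPKM and Actg2, the enteric smooth muscle actin, at 816, 689 and 628 FPKM. Each was lowest in control 3, as were 14 of the 17, against 3087 of all 12030 genes at 1 FPKM or more, while Myocd had a mean of 0.389 FPKM. Fibroblast genes were led by Gsn at 415 ± 11.8, Dcn, the proteoglycan decorin, at 346 ± 41.8, and Col3a1, a fibrillar collagen, at 128 ± 15.1 FPKM (SD, n = 3). Sox6 was the fibroblast row under 1 FPKM, at 0.362. The neuropeptide genes Vip and Tac1 led the enteric neuron list at 62.6 ± 11.9 and 38.4 ± 10.4 FPKM (SD, n = 3), and the defining Chat, Nos1 and Elavl3 had means of 0.202, 0.416 and 0.219 FPKM. Lyve1, of lymphatic vessels, led the endothelial list at 21.6 ± 3.41 FPKM (SD, n = 3), with Flt1 and Prox1 at 0.659 and 0.145. Enteric glia showed Cryab at 29.3 ± 2.05 FPKM (SD, n = 3) and Sox10, their defining factor, at 0.569, 1.16 and 0.62 FPKM. Interstitial cells of Cajal, the pacemaker cells of the gut wall, showed Ano1, their chloride channel, at 33.8 ± 5.14 and Kit at 5.51 ± 1.89 FPKM (SD, n = 3). Fabp4 led the adipocyte list at 63.4 ± 3.6 FPKM (SD, n = 3), with Plin1 and Lep at 0.47 and 0.0726.

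Immune genes were lower still, and 96 listed rows summed to 0.438%, 0.372% and 0.396% of FPKM. Ptprc, the pan-leukocyte CD45, stood at 2.13, 1.04 and 2.01 FPKM. The highest of the listed rows belonged to IgA transport, and the sum includes Pigr, so it is not of immune cells alone. Pigr, the epithelial receptor that carries IgA into the lumen, stood at 488, 669 and 747 FPKM and Jchain, which joins IgA in plasma cells, at 686, 508 and 468 FPKM. Pigr and Jchain ran in opposite order, with Jchain highest and Pigr lowest in control 1. Macrophage genes all reached 1 FPKM (18 of 18), led by Lyz2, with a near-identical copy, at 319 ± 34.3 and by the complement genes C1qa, C1qb and C1qc at 71.7 ± 3.86, 64.6 ± 11.9 and 54.3 ± 4.12 FPKM (SD, n = 3). T and NK cell genes were near the floor, with 5 of 17 rows at 1 FPKM or more. Klrd1, Cd3g, Cd2, Lck and Gzma lay at 1.04 to 2.37 FPKM, Cd3e at 0.151, Cd8a at 0.174 and Foxp3, the factor of regulatory T cells, at 0.029. In the B cell list, Cd74, which other antigen-presenting cells also express, stood at 145, 117 and 183 FPKM, Cd79a at 10.8, 6.13 and 17.1 and Ms4a1, CD20, at 3.25, 2.21 and 6.33 FPKM. All 7 B cell rows at 1 FPKM or more were highest in control 3 and lowest in control 2, against 3870 and 2686 of all 12030 genes, and Pax5 had a mean of 0.0131 FPKM. Neutrophil rows reached 1 FPKM in 4 of 14 cases. S100a8 stood at 15.3, 4.07 and 8.35 and S100a9 at 11.8, 1.99 and 5.42 FPKM, and the granule genes Elane, Mpo and Ltf had means of 0.0137, 0.0216 and 0.049 FPKM. In the mast cell and eosinophil list Cma1 and Prg2 reached 1 FPKM, and Epx, Ccr3, Ms4a2 and Tpsab1 were listed at 0.

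Large receptor families lay at or near 0. Of 1107 olfactory receptor rows 915 were listed at 0 and 2 reached 1 FPKM, Olfr165 at 2.05, 5.25 and 5.19 FPKM and Olfr1368 at 1.39, 1.27 and 0.834 FPKM. No row of 330 vomeronasal or of 38 taste receptors reached 1 FPKM (0 rows in each), the highest being Vmn2r29 at 0.707 and Tas1r3 at 0.153 FPKM.

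Spread between the control samples was narrower at higher levels. The median CV over genes of at least 1 FPKM was 15.2%, and by level it ran from 20.2% for genes at 1 to 3 FPKM to between 11.1% and 11.4% in the 3 bins of 100 FPKM or more. Without control 1 the median CV was 9.25%, and without control 2 or 3 it was 13.8% or 14.8%. The median CV of a pair of samples runs lower than that of 3, so these values compare only with each other. Among uniquely named genes of at least 20 FPKM the lowest CV was that of Eif4e2. This cap-binding protein gene stood at 24.2, 24.2 and 24.3 FPKM, with a CV of 0.235%. Adam9, Cept1, Hnrnpu, Ddx1, Eif2s2, Vti1b, Ubl4a, Afg3l2, Psmc4, Ewsr1, Maea, Arf4, Cct3 and Psmd7 followed, with CVs of 0.342% to 0.933%. Their functions include RNA binding, translation, membrane traffic, protein folding and the proteasome. With 3 values a CV this small is partly a matter of the ranking, since the lowest of 3560 genes were taken. Of 5545 genes of at least 10 FPKM, 627 had a CV under 5% and 136 a CV over 50%.

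**Figure D4:**
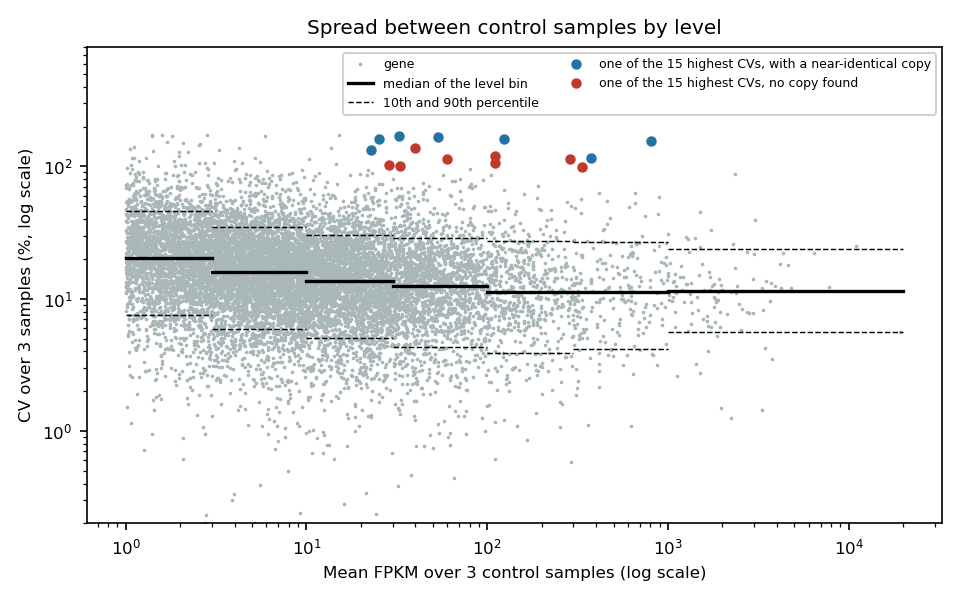
CV over the 3 control samples against mean FPKM, both on log scales, for genes of at least 1 FPKM. Each grey point is a gene, solid and dashed lines give the median and the 10th and 90th percentiles of each level bin, and coloured points are the 15 highest CVs among uniquely named genes of at least 20 FPKM. The bin medians descend from 20.2% to 11.25% at 100 to 300 FPKM and lie at 11.1% and 11.4% in the last bins.

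A smaller set differed by more than 2-fold between the highest and the lowest control sample. It numbered 341 of the 5545 genes, which is 6.15%. Control 1 was the highest in 165 of them and the lowest in 143. Without control 1 the count was 69, without control 2 it was 226 and without control 3 it was 249, where a pair of samples spans less than 3 by construction. Some of the widest spreads lie in rows with a near-identical copy, where the copy was high in samples in which the gene was low. Atp6v0c, a proton pump subunit, was listed at 0.976, 2.51 and 156 FPKM, but its sum with the pseudogene Atp6v0c-ps2 was 163, 154 and 156 FPKM. Ccl21a, a chemokine gene, was listed at 72, 2.03 and 1.73 FPKM, and its sum with Ccl21b and Gm1987 was 173, 183 and 180 FPKM. For Rpl34, listed at 2249, 76.4 and 85.6 FPKM, the sum with Rpl34-ps1 was 2249, 3938 and 3246 FPKM and still lowest in control 1. Gm12191 stood at 15.6, 0.665 and 356 FPKM, and its sum with Rpl30 was 994, 868 and 744 FPKM. Of the 341 genes, 54 have such a copy (15.8%), against 16.7% of all genes of at least 10 FPKM.

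Haemoglobin rows illustrate both kinds of spread. Hbb-bs was listed at 97.4, 0 and 0.698 FPKM and Hbb-b1 at 0.157, 97.4 and 232 FPKM, in opposite samples. The sum of Hbb-bs, Hbb-b1 and Hbb-bt was 124, 121 and 291 FPKM, and that of Hba-a1 and Hba-a2 was 80.9, 70.9 and 179 FPKM. Both sums were highest in control 3. Hbb-b2, which is not in the sum, stood at 32.65, 30.8 and 76.3 FPKM and was also highest in control 3. No near-identical copy was recorded for Hbb-b1, but a gene whose name matched no transcript was not searched and has the same record. Whether reads were split between Hbb-b1 and Hbb-bs was not tested.

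Other wide spreads had no copy found and were high in control 1. Sprr1a, a small proline-rich protein of stressed and cornifying epithelium, stood at 103, 8.3 and 7.69 FPKM. Emp1, an epithelial membrane protein, stood at 262, 15.3 and 53.3 FPKM and Tnfrsf12a, the TWEAK receptor, at 139, 23.4 and 18 FPKM. Gprc5a, an orphan receptor induced by retinoic acid, stood at 715, 147 and 138 FPKM. For Sprr1a, Tnfrsf12a and Gprc5a the values of controls 2 and 3 lie close together, and the spread is that of control 1 alone. Trim15, a tripartite motif protein, stood at 61.3, 4.31 and 20.3 FPKM and 2010109I03Rik at 645, 17.5 and 194 FPKM. The paired calcium-activated channel regulators Clca4a and Clca4b, which have near-identical copies, were both highest in control 1. Clca4a stood at 867, 79.2 and 174 FPKM and Clca4b at 57.7, 2.49 and 8.44 FPKM. Socs3, the feedback inhibitor of STAT3 signalling, stood at 67.9, 3.04 and 27.4 FPKM, lowest in control 2.

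Further genes that set control 1 apart were chosen after their values were seen. In 70 of the 341 genes control 1 lay more than 2-fold above both other samples while those were within 2-fold of each other, and in 55 it lay as far below. The same counts were 4 and 24 for control 2 and 12 and 11 for control 3. Among those above, Areg, an EGF receptor ligand, stood at 87.1, 26 and 30.6 FPKM, Hif1a, the hypoxia factor, at 148, 47.5 and 52.6 FPKM and Reg3b, an antibacterial lectin, at 57.7, 15.4 and 17 FPKM. Among those below, Rnf186, a ubiquitin ligase of colonocytes, stood at 17.3, 100.1 and 95.9 FPKM, Pck1, of gluconeogenesis, at 11.5, 47.5 and 42.9 FPKM and Nlrp6, an inflammasome sensor of gut epithelium, at 25.6, 67.8 and 65.3 FPKM. Ang4 and Retnlb, secreted antibacterial proteins of crypt and goblet cells, were highest in control 3. Ang4 stood at 450.2, 394 and 1135 FPKM and Retnlb at 88.2, 66 and 218 FPKM.

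Some gene lists lay mostly above or below the other samples in control 1. For each list the median difference of log2(FPKM + 1) from the mean of the 3 samples was taken over its genes of at least 1 FPKM. Over all 12030 genes these medians were -0.07, 0.05 and 0.02 in controls 1, 2 and 3, and control 1 was the lowest in 6257 genes and the highest in 3055. The cholesterol synthesis list had medians of 0.46, -0.29 and -0.10, with 16 of 20 genes highest in control 1. Its 3 highest members, Msmo1, Hmgcs1 and Fdps, are enzymes of that pathway. Msmo1 stood at 310.3, 106 and 146 FPKM, Hmgcs1 at 109, 47.6 and 53.5 FPKM and Fdps at 51.8, 34.7 and 40.9 FPKM. Each was highest in control 1 and lowest in control 2, and Msmo1 and Fdps have near-identical copies. Hox genes had medians of -0.38, 0.18 and 0.15, with 13 of 17 lowest in control 1. The butyrate and fat oxidation list had medians of -0.21, 0.11 and 0.15 and the intestinal transcription factors -0.18, 0.06 and 0.12, with 25 of 35 lowest in control 1. None of these 4 lists changed the sign of control 1 under either other scaling of the samples. Under median-of-ratios scaling the medians in control 1 were -0.13 for the butyrate and fat oxidation list and -0.10 for the transcription factors, with 19 of 35 lowest there. The respiratory chain list had medians of -0.13, 0.08 and 0.05 with 25 of 30 lowest in control 1, and under median-of-ratios scaling its median in control 1 was -0.04, with 20 of 30 lowest there.

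**Figure D5:**
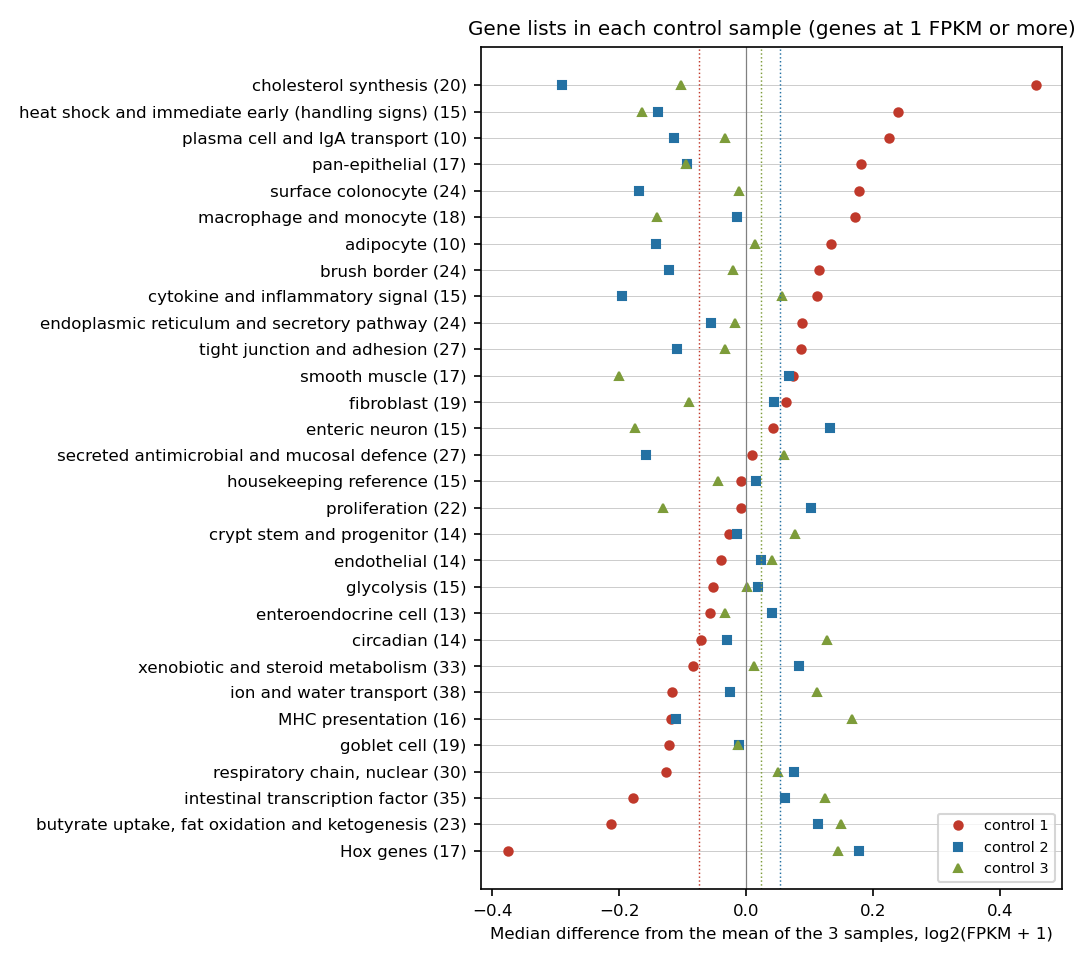
Median difference of each gene list from the mean of the 3 control samples, in log2(FPKM + 1), for lists with at least 10 genes at 1 FPKM or more (number of genes in brackets). Symbols stand for the samples and dotted lines for the medians over all genes. Cholesterol synthesis lies farthest to the right in control 1, at 0.46, and Hox genes farthest to the left, at -0.38.

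Several measures moved with these differences, and their part in them was not tested. Heat shock and immediate early genes, which respond to tissue handling, had medians of 0.24, -0.14 and -0.16, with 12 of 15 highest in control 1 and a summed share of 0.408%, 0.272% and 0.266%. Hspa8, the highest of them and with a near-identical copy, stood at 1675, 1085 and 1006 FPKM. Control 1 was lower relative to the other samples in short transcripts, with a median log2 ratio of -0.19 for transcripts under 500 bases and -0.02 for those of at least 3000 bases, against -0.13 overall. Mesothelial genes, of the outer lining of the gut, had 4 of 7 rows at 1 FPKM or more and all 4 were highest in control 1, with a summed share of 0.00309%, 0.000675% and 0.00117%, Msln at 5.77, 0.437 and 2.3 and Upk3b at 5.77, 0.423 and 2.24 FPKM. Squamous epithelium, as of the anal canal, had 3 of 15 rows at 1 FPKM or more and a summed share of 0.0584%, 0.0166% and 0.02%, with Sfn, which has a near-identical copy, at 349, 103 and 123 FPKM, Krt14 at 2.33, 0.833 and 1.17, the defining Krt5 at a mean of 0.00896 FPKM and Trp63 at 0. The 4 neutrophil rows at 1 FPKM or more were all highest in control 1, and the 14 rows summed to 0.00665%, 0.00218% and 0.00326%. Control 1 was also the highest in 14 of 18 macrophage and monocyte genes, 12 of 19 fibroblast, 7 of 10 adipocyte, 7 of 10 plasma cell and IgA transport, 15 of 24 surface colonocyte, 11 of 17 pan-epithelial and 4 of 6 tuft cell genes, against 3055 of all 12030. Under median-of-ratios scaling the macrophage count was 16 of 18 and the fibroblast count 18 of 19. The macrophage list summed to 0.13%, 0.104% and 0.101% of FPKM, the fibroblast list to 0.248%, 0.226% and 0.202% and the adipocyte list to 0.0334%, 0.0234% and 0.0246%. Smooth muscle, enteric neuron and fibroblast lists were mostly lowest in control 3, in 14 of 17, 14 of 15 and 14 of 19 genes, against 3087 of all 12030. Under median-of-ratios scaling these counts were 16, 14 and 13.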

How the data were processed

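The 3 control samples of mouse colon were used, and the other 3 samples of the series were left out by the rule. The values are FPKM per gene row, as the authors deposited them, per the file headers. Per the submitters' processing notes, TopHat2 2.1.1 and the mm10 build were used. Which program computed FPKM, and with which gene annotation, is not given in the sources used here. Read depth is unknown, since low values did not fall on whole-read steps.

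From these values the mean, SD, CV, rank, highest over lowest sample and share of summed FPKM were computed per gene (Python 3.11.15, numpy 2.4.6, pandas 2.3.3). No test was made, since there is 1 group. Of 24421 rows, 27 carry a date in place of a gene name and 4 share a name, and these stayed in totals but were not named. A gene has a near-identical copy where BLAST 2.17.0 found another gene's GENCODE vM21 transcript with at least 95% identity across 200 bases or more: 978 of 5823 matched genes with a sample of at least 10 FPKM did (16.8%). Of the 6011 genes with such a sample, those not matched to a transcript were not searched and count as having no copy. Promoters (250 bases before to 50 after the start) came from RefSeq on GRCm38.p6. TATAA was added after promoters were seen.

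The text names the 30 highest genes, up to 6 highest members of a list or family with defining members under 1 FPKM, the 15 highest and 15 lowest CVs among uniquely named genes of at least 20 FPKM, and a fixed set of reference and identity genes. A few genes that these rules pick are not reported here. The gene lists and the genes in them were chosen with earlier results of these data known. The CV and share steps were tested on simulated data of 12030 genes with a known CV. The median CV of 3 samples ran low, at 0.824, 0.837 and 0.788 times true CVs of 5%, 15% and 40%. At 40% the root-mean-square CV came out at 37.3% and the share of the 100 highest genes at 39.6% against a true 38.3%. That case missed the tolerances first set, which were then widened to 10% of the CV and 2 percentage points of the share, with the calculation unchanged. The alternatives tried were leaving out each sample, other scalings, minimums and pseudocounts, and weighting by transcript length.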

Additional observations from a re-analysis of the deposited data

How the results depend on the processing

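Shares are the same under any rescaling of a sample, and leaving out 1 of 3 samples cannot take a mean outside their spread, so neither says how stable a share is. Leaving out each sample in turn gave a median CV of 9.25% to 14.8% and 69 to 249 genes over 2-fold, with the lowest value of both without control 1. Without cytosolic ribosomal proteins the 10 highest genes held 12.9% of the summed FPKM. Weighted by transcript length, the 10 highest held 12.7% and the 100 highest 32.4%, and 324 genes held 50%, because long genes then weigh more. Counting any value above 0 gave 18061 genes, against 12030 at 1 FPKM or more, and a median CV of 20.7%. The count over 2-fold was 1271 with a minimum of 1 FPKM, 217 with a minimum of 20 FPKM and 712 with no minimum and a pseudocount of 1. Summing near-identical rows, an alternative chosen after seeing the data, gave 313 against 341. Of the 49 list shares, 35 moved by more than the spread between samples under weighting by length and 3 when the median over samples replaced the mean. Read depth is unknown, so no counting interval can be given, and a row listed at 0 may be a failed estimate. No paired analysis was possible because only the control group was described and it holds no second group to pair with.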

Other observations

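Further gene groups of the control colon were described after their values were seen. Antigen presentation genes were widely present, with 16 of 19 rows at 1 FPKM or more. H2-K1, a class I heavy chain with near-identical copies, stood at 874, 973 and 1041 FPKM and B2m, its light chain, at 826, 688 and 757 FPKM. Of the class II genes, H2-Aa stood at 149, 120 and 171 FPKM, H2-Ab1 at 107, 118 and 154 FPKM and H2-Eb1 at 67.7, 70.4 and 88.5 FPKM. H2-K1 and each of these class II genes were highest in control 3, the sample in which the B cell rows were also highest. B2m was highest in control 1. In all, 14 of the 16 presentation rows were highest in control 3, against 3870 of all 12030 genes at 1 FPKM or more. In the cytokine and inflammatory signal list the highest members were Il18, an epithelial cytokine, at 468, 426 and 446 FPKM, and Ccl28, which draws IgA-secreting cells to mucosa, at 55.1, 104 and 80.3 FPKM. Outside that list the chemokine Ccl6 stood at 296, 358 and 345 FPKM and Il1rn, the interleukin 1 receptor antagonist, at 148, 60.3 and 34.9 FPKM. Ifng, Il17a and Csf3 were listed at 0, Il6 and Tnf had means of 0.153 and 0.601 FPKM, and Nos2, inducible nitric oxide synthase, stood at 0.884, 0.0782 and 2.25 FPKM. The toll-like receptors were led by Tlr1 at 27.8 ± 4.55 and Tlr4 at 9.09 ± 2.76 FPKM (SD, n = 3). Of their 12 rows 6 reached 1 FPKM (50%, against 49.3% of all rows).

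Secretory pathway genes were led, after Agr2, by Hspa5, the chaperone BiP, at 618, 362 and 354 FPKM, highest in control 1. The hour of sampling is not in the labels. Dbp, an output gene of the clock, stood at 5.43, 12.1 and 17.7 FPKM, Arntl, its activator, at 25.2, 22 and 15.6 FPKM and Clock at 7.36, 9.32 and 0.561 FPKM. Dbp was lowest where Arntl was highest, and Clock was lowest in control 3. Guca2b, uroguanylin, stood at 8.06, 9.18 and 11.3 FPKM, so that Guca2a exceeded it 239.6 ± 42.6 times (SD, n = 3). Neat1, a nuclear long RNA, stood at 57.6, 28.5 and 0.716 FPKM. Genes were also ordered by FPKM times the median length of all GENCODE transcripts of the gene. This is only a rough stand-in for sequenced fragments, since the lengths used to compute FPKM are unknown. In that order Lypd8 stayed at rank 1, Muc13 moved from rank 80 to 8 and Tff3 from rank 9 to 27.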
